A study of Mus musculus with 6 samples.

Results

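The 10 genes described here are 2 beta-thymosins (Tmsb4x, Tmsb10), the 2 cytoplasmic actins (Actb, Actg1), profilin (Pfn1), cofilin (Cfl1), 2 subunits of the Arp2/3 complex (Arpc1b, Arpc2) and 2 transgelins (Tagln, Tagln2). They were found by symbol among the 54532 genes of the deposited expression table, and all 10 were matched. They had been chosen by their levels in these same tumors, as transcripts of very high abundance, so those levels are given as a description and without a test. Levels are in FPKM, which counts fragments relative to transcript length and library size. By mean level, 9 of the 10 ranked between 3 and 315. Tagln, at rank 11805, goes against the label: its highest value in any tumor was 5.56 FPKM, while that of each of the other 9 was above 400 FPKM.

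Actin monomers assemble into filaments that shape the cell, drive the leading edge of migrating cells and carry contractile force. Beta-thymosins bind monomers and hold them out of filaments, whereas profilin binds monomers and feeds them to growing filament ends. Cofilin severs ageing filaments, the Arp2/3 complex starts new branches on the side of old ones, and transgelins bind along filaments. In melanoma and in the leukocytes that infiltrate it, these proteins serve migration and invasion, and their transcripts are plentiful in most motile cells.

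The measurements are bulk RNA sequencing of 6 whole mouse tumors, 3 labelled NTC (non-targeted control) and 3 labelled Gli2CA. Every tumor was grown from a melanoma line of genotype BRAFV600EPTEN-/-, kept in medium with puromycin, and the Gli2CA cells carried an active form of Gli2, a transcription factor of the Hedgehog pathway. Both groups were started from 1000000 cells in 100 uL of a matrigel and PBS mix, placed in C57Bl/6 mice, and tumors were taken whole at day 28, so host stroma and leukocytes are included. Separate mice are not stated for the samples, and part of the spread on which p-values rest may be technical. The mice's age and sex, the promoter that drives the Gli2 construct and the number of clones behind each line are not given in the labels.

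The libraries held between 16225485 and 22274099 fragments, computed back from the deposited values, and Gli2CA replicate 2 was the smallest. Gli2 itself stood at 8.88, 11.1 and 7.96 FPKM in the NTC tumors and at 3.21, 5.82 and 1.61 FPKM in the tumors labelled Gli2CA. It was lower in all 3 of the latter, with a log2 fold change of -1.40 that did not pass the threshold in limma (adjusted p = 0.0853), a linear model fitted across all genes. The sources used here do not give whether the construct's own transcript is counted in this row, so a direction between groups is that of the labels. The error of each log2 fold change below is the SE of that fit over 3 tumors per group. Of the melanocyte markers, Mlana stayed at or below 0.504 FPKM in every tumor, and the summed level of 8 such markers, carried mainly by Sox10 and S100b, was 219 to 359 FPKM in the NTC tumors and 119 to 215 FPKM in Gli2CA. In bulk tumors, fewer cells of a type and less RNA per cell cannot be told apart.

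No member passed the threshold of a limma adjusted p under 0.05 between Gli2CA and NTC, where 0.348% of the 15820 tested genes did (0.265% higher and 0.0822% lower). The 2 thymosins had the largest estimates that also separated the groups, with Tmsb4x 2.44-fold and Tmsb10 1.80-fold higher in Gli2CA by the fitted means of the logs. They were the only 2 of 10 members with an unadjusted limma p under 0.05, a level reached by 27.5% of all tested genes (12.8% higher, 14.7% lower). They were also the only 2 whose groups did not overlap, which was so for 33.8% of all tested genes (15.9% higher, 17.9% lower). The members' share, 2 of 10, is below those of the table over both directions and above those of the table on the higher side, where both thymosins lie. Short genes reached that p more often on the higher side. It was 30.3% of tested genes with a mean transcript length under 800 bases, the class of both thymosins. At 800 to 1300 bases it was 18.2%. Beside its own length class the thymosins' result is therefore not an excess. The other 8 members had log2 fold changes between -0.24 and 0.41 and adjusted p between 0.502 and 0.968. Over the 10 members the median log2 fold change was 0.0079, beside -0.039 over all tested genes, and 5 estimates were above 0 and 5 below. That median was -0.16 with the length trend removed and 0.13 without Gli2CA replicate 2.

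**Figure D1:**
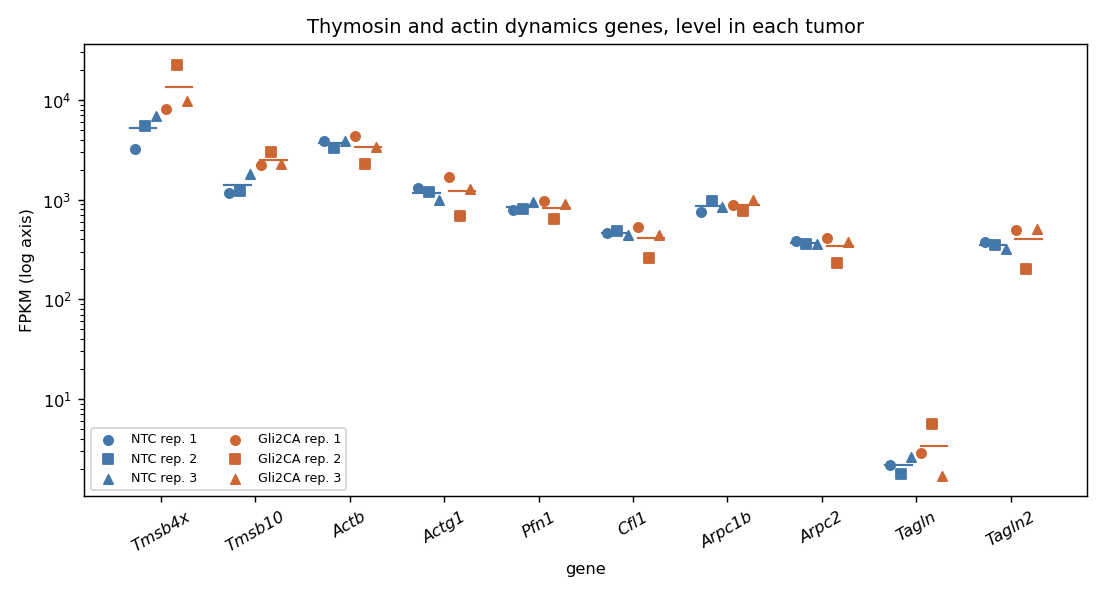
Level of each of the 10 genes in each tumor, in FPKM on a log axis, with blue for NTC and orange for Gli2CA, marker shapes for replicates 1 to 3 and a line at each group's mean (3 tumors per group). Only for Tmsb4x and Tmsb10 do all 3 Gli2CA tumors lie above all 3 NTC tumors, and Gli2CA replicate 2 (square) is the lowest tumor for 6 genes and the highest for 3.

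The thymosins are short genes that encode similar small proteins from dissimilar transcripts. Tmsb4x (ENSMUSG00000049775) lies at chrX:167207093-167209315 on the minus strand and Tmsb10 (ENSMUSG00000079523) at chr6:72957347-72958748 on the minus strand (GRCm38, GENCODE M21). The longest coding length that both genes share is 135 bases, stop codon included, and over it they are 70.4% identical, with 40 differences and no shared run longer than 10 bases. The first 60 coding bases of each are shown to let a reader tell apart the 2 transcripts that separated the groups; capitals mark the 15 bases that differ.
Tmsb4x: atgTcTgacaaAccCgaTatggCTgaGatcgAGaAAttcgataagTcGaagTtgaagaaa
Tmsb10: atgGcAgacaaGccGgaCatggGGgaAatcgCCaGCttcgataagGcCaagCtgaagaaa

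Tmsb4x, the main monomer-sequestering protein of many mammalian cells, was at 3244, 5519 and 6903 FPKM in the NTC tumors. In the Gli2CA tumors it was at 8124, 22651 and 9707 FPKM. Each Gli2CA tumor was therefore above each NTC tumor, and replicate 2 of Gli2CA was more than 2 times any other tumor. By rank within a tumor Tmsb4x was at 15, 4 and 5 in NTC and at 3, 1 and 3 in Gli2CA. In Gli2CA replicate 2 it was the most abundant transcript of all. It took 0.474%, 0.770% and 0.845% of the summed FPKM in the NTC tumors and 1.05%, 2.52% and 1.21% in Gli2CA. Group means were 5222 ± 1847 and 13494 ± 7969 FPKM (SD, n = 3 each). The limma log2 fold change was 1.28 ± 0.50 (SE), with a 95% interval from 0.16 to 2.41 and an adjusted p of 0.142. Leaving out that replicate gave 0.83 with an adjusted p of 0.244.

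Tmsb10, its close relative with the same monomer-binding activity, was at 1172, 1218 and 1827 FPKM in NTC. The Gli2CA tumors had 2204, 2987 and 2296 FPKM, again all above NTC and again highest in replicate 2. Means were 1406 ± 365 and 2495 ± 428 FPKM (SD, n = 3 each), and the log2 fold change was 0.84 ± 0.31 (SE), with a 95% interval from 0.15 to 1.54 and a limma adjusted p of 0.128. Leaving out Gli2CA replicate 2 gave 0.71 with an adjusted p of 0.187. The annotated gene Gm9844 is 99.1% identical to Tmsb10 over 466 bases, and fragments of the pair may have been divided between them. Gm9844 stood at 25.5, 24.1 and 42.4 FPKM in the NTC tumors and 46.9, 66.7 and 51.0 FPKM in Gli2CA, so it held few of the fragments and lay in the same order between groups.

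Gene length moved together with the same contrast. Tested genes with a mean transcript length under 800 bases, the class of both thymosins, had a median log2 fold change of 0.48 over 2493 genes, and those over 3000 bases had -0.39 over 2268 genes. Within the class of short genes, 11.6% had an estimate at or above that of Tmsb4x and 29.3% one at or above that of Tmsb10. The median deviation of the short class from the NTC mean was -0.31, 0.12 and 0.22 (log2) in NTC and 0.29, 0.82 and 0.43 in Gli2CA, highest in Gli2CA replicate 2 as for both thymosins. With the trend on length removed per sample, Tmsb4x had a log2 fold change of 0.93 (limma adjusted p = 0.18) and Tmsb10 one of 0.34 (adjusted p = 0.352). Beyond that value, its part in the result was not tested.

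**Figure D2:**
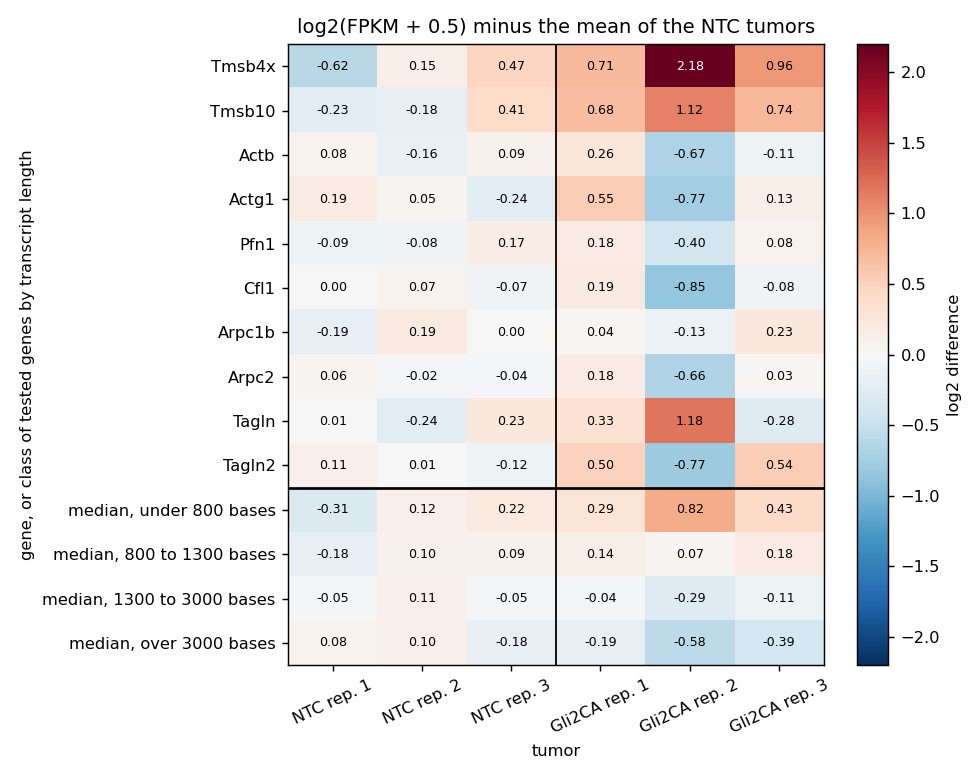
Log2 deviation of each gene in each tumor from its mean over the 3 NTC tumors, with the median of each class of tested genes by length in the lower rows; red is above and blue below the NTC mean. In the column of Gli2CA replicate 2, Tmsb4x (2.18), Tmsb10 (1.12) and Tagln (1.18) are above while Actb (-0.67), Actg1 (-0.77), Cfl1 (-0.85) and Tagln2 (-0.77) are below.

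Profilin, the partner that hands monomers to growing filaments, lacked that separation. Pfn1 (ENSMUSG00000018293, chr11:70651850-70654644, minus strand) was at 795, 800 and 951 FPKM in the NTC tumors and 959, 640 and 895 FPKM in Gli2CA. The groups overlapped, with the highest and the lowest value both in Gli2CA. The log2 fold change was -0.046 ± 0.27 (SE), with a 95% interval from -0.65 to 0.56 and a limma adjusted p of 0.928. Its sign changed without Gli2CA replicate 2 (0.13) and without NTC replicate 3 (0.038).

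The cytoplasmic actins are the substrate of all the other members. Actb (ENSMUSG00000029580, chr5:142903115-142906754, minus strand) and Actg1 (ENSMUSG00000062825, chr11:120345690-120348542, minus strand) are 88.7% identical over 1128 coding bases and share a run of 62 bases, longer than in the thymosins. Their first 60 coding bases, which encode the end where the proteins differ most, are shown for comparison with the thymosins; capitals mark the 9 bases that differ.
Actb: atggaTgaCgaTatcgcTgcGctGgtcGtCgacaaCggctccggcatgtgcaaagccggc
Actg1: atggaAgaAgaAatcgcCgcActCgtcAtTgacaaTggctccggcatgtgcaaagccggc

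Actb was at 3848, 3266 and 3877 FPKM in NTC, a narrow range. In Gli2CA it was at 4369, 2293 and 3376 FPKM, which enclosed every NTC value. Its log2 fold change was -0.18 ± 0.34 (SE), with a 95% interval from -0.95 to 0.60 and a limma adjusted p of 0.762. Rank within a tumor lay between 7 and 16 in 5 tumors and was 58 in Gli2CA replicate 2.

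Actg1 was at 1323, 1204 and 983 FPKM in the NTC tumors and at 1701, 682 and 1272 FPKM in Gli2CA. As with Actb, replicate 1 of Gli2CA was the highest tumor and replicate 2 the lowest. The log2 fold change of -0.029 ± 0.37 (SE) had a 95% interval from -0.86 to 0.80 and a limma adjusted p of 0.968. Both actins changed sign without Gli2CA replicate 2, to 0.073 for Actb and 0.34 for Actg1, and neither passed the threshold there. Actg1 has 13 processed pseudogenes with at least 90% identity over at least 200 bases, the most identical being Gm12715 at 99.6% over 1128 bases. Together these pseudogenes held 3.21% to 3.53% as many fragments as Actg1 itself, and the 5 of Actb held 0.635% to 1.08% as many as Actb.

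Actin genes are known targets of serum response factor (SRF), which binds the CArG box. Of the 10 members, 8 had promoter windows in the table taken from RefSeq (GRCm38.p6, 250 bases before to 50 after each annotated start; 10 windows in all), and 1 window, that of Actg1, held a CArG box (searched on both strands). Members without a window were not searched, and a box outside these windows would have been missed. A box was present in 1.63% of all 32851 windows. The stretch around the box, chr11:120348551-120348610 read on the minus strand, is shown because Srf and the actins were measured in the same tumors; capitals mark the box, which ends 80 bases before the RefSeq start at 120348495 (GENCODE M21 places the gene's first base further upstream).
Actg1 promoter: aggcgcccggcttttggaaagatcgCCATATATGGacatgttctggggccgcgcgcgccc
Srf was at 46.7, 40.6 and 29.5 FPKM in the NTC tumors and 42.3, 15.0 and 27.7 FPKM in Gli2CA. The groups overlapped, Gli2CA replicate 2 was lowest as for Actb and Actg1, and the log2 fold change was -0.55 ± 0.37 (SE, limma adjusted p = 0.350).

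Cofilin, the severing factor, had the most negative estimate of the members. Cfl1 (ENSMUSG00000056201, chr19:5490455-5495201, plus strand) was at 464, 489 and 442 FPKM in the NTC tumors and at 529, 258 and 440 FPKM in Gli2CA. Only replicates 2 and 3 of Gli2CA lay below NTC, and replicate 1 lay above it. The log2 fold change was -0.24 ± 0.30 (SE), with a 95% interval from -0.92 to 0.44 and a limma adjusted p of 0.617. Leaving out Gli2CA replicate 2 gave 0.057. In the annotation 16.5% of the exonic bases of Cfl1 are shared with Snx32 on the other strand.

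Both Arp2/3 subunits had groups that overlapped. Arpc1b (ENSMUSG00000029622, chr5:145114215-145130705, plus strand), one of a pair of alternative subunits at the base of the complex and the one typical of blood cells, was at 747, 971 and 848 FPKM in the NTC tumors and 874, 777 and 995 FPKM in Gli2CA. The highest tumor was 1.33 times the lowest. Its log2 fold change was 0.045 with a 95% interval from -0.53 to 0.62 (limma adjusted p = 0.927). In the annotation 18.2% of its exonic bases are shared with Pdap1 on the other strand.

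Arpc2 (ENSMUSG00000006304, chr1:74236084-74268209, plus strand), a core subunit with no alternative form, was at 384, 362 and 358 FPKM in NTC. In Gli2CA it was at 416, 232 and 376 FPKM, with replicate 2 lowest of all tumors and replicate 1 highest. The highest tumor was 1.79 times the lowest, while the NTC tumors alone were close together at 368 ± 14.2 FPKM (SD, n = 3). The log2 fold change was -0.15 ± 0.27 (SE), with a 95% interval from -0.77 to 0.47 and a limma adjusted p of 0.741. Leaving out Gli2CA replicate 2 turned it to 0.10.

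The transgelins bind along filaments and are markers of contractile cells (Tagln) and of many other cells, lymphocytes among them (Tagln2). Tagln2 (ENSMUSG00000026547, chr1:172500047-172507380, plus strand) was at 375, 350 and 321 FPKM in the NTC tumors and at 492, 203 and 506 FPKM in Gli2CA. Replicates 1 and 3 of Gli2CA were above every NTC tumor and replicate 2 was below every one. Over all 6 tumors the log2 fold change was 0.088 ± 0.36 (SE), with a 95% interval from -0.73 to 0.90 and a limma adjusted p of 0.896. Without Gli2CA replicate 2 it was 0.52, with an adjusted p of 0.169.

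Tagln (ENSMUSG00000032085, chr9:45929619-45936058, minus strand) was at 2.19, 1.77 and 2.63 FPKM in the NTC tumors and at 2.85, 5.56 and 1.69 FPKM in Gli2CA. These values rest on 47, 36 and 45 fragments in NTC and 54, 87 and 33 in Gli2CA. The groups overlapped, with the highest and the lowest tumor in Gli2CA, and the log2 fold change was 0.41 ± 0.38 (SE; limma adjusted p = 0.502, 95% interval from -0.45 to 1.26). When Gli2CA replicate 2 was left out it was 0.021. Acta2, smooth muscle actin and another marker of contractile cells, was at 174, 105 and 90.6 FPKM in the NTC tumors and 150, 86.1 and 97.5 FPKM in Gli2CA, far above Tagln on the same per-length scale. In the annotation 67.9% of the exonic bases of Tagln are shared with other genes, most of them with the antisense gene Gm48529. That gene was at 0.624, 0.532 and 0.112 FPKM in the NTC tumors and 0.404, 1.06 and 0.623 FPKM in Gli2CA. The sources used here do not give the strand setting of the counting, and whether any Tagln fragments went uncounted through this overlap was not tested.

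**Figure D3:**
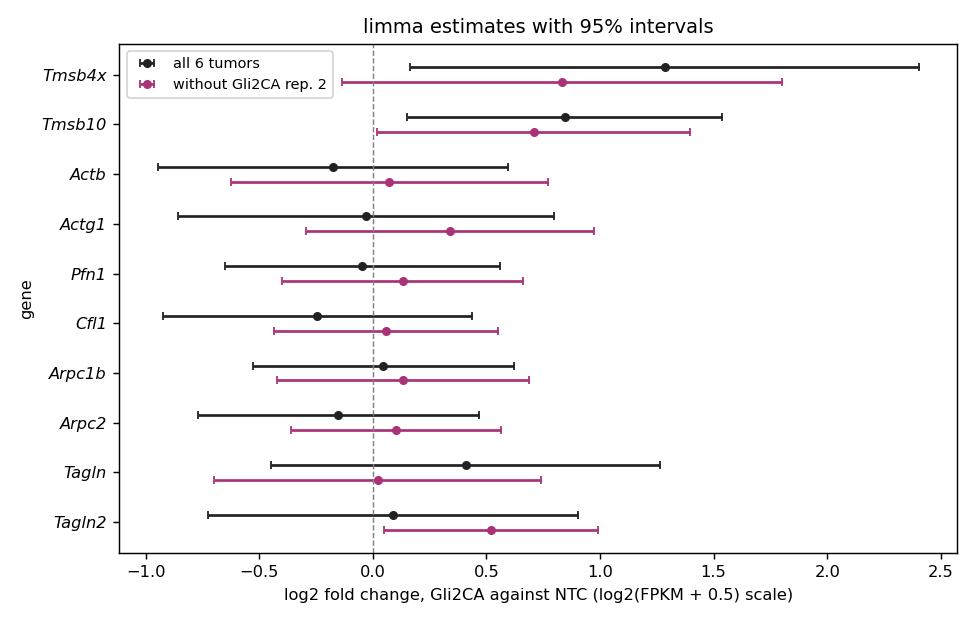
Limma log2 fold changes of Gli2CA against NTC for the 10 genes with 95% intervals, for all 6 tumors (black) and without Gli2CA replicate 2 (purple). With all tumors the intervals of Tmsb4x and Tmsb10 lie above 0 before adjustment. Without that tumor all 10 estimates are above 0, and none passes the adjusted threshold. There the interval of Tmsb4x spans 0 (-0.13 to 1.80), and those of Tmsb10 (0.020 to 1.40) and Tagln2 (0.048 to 0.99) lie above 0.

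Gli2CA replicate 2 was an extreme tumor for most members. It was the lowest of the 6 tumors for 6 of 10 (Actb, Actg1, Pfn1, Cfl1, Arpc2 and Tagln2) and the highest for 3 (Tmsb4x, Tmsb10 and Tagln). The share of all tested genes with an extreme value in this tumor was not computed, so these counts are not a trait of the members. Its median log2 deviation from the NTC mean was 0.82 for genes under 800 bases, 0.068 at 800 to 1300 bases and -0.58 over 3000 bases. Replicate 1 of Gli2CA was the highest tumor for 5 members and replicate 3 for the other 2. Together the members took 1.80%, 1.98% and 2.02% of the summed FPKM in the NTC tumors and 2.54%, 3.42% and 2.47% in Gli2CA, so that they held the largest share in the tumor in which most of them were lowest. Tmsb4x alone made up most of the share of the members there.

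Ratios within a tumor do not depend on the scaling between tumors. The thymosins to cytoplasmic actins ratio (Tmsb4x plus Tmsb10 over Actb plus Actg1) was 0.854, 1.51 and 1.80 in NTC and 1.70, 8.62 and 2.58 in Gli2CA. Gli2CA replicate 1 lay below NTC replicate 3, so the groups overlapped, and the difference of means was 1.34 on the log2 scale (two-sided exact permutation test, p = 0.2; the smallest p that 3 against 3 allows is 0.1). The Tmsb10 to Tmsb4x ratio was lowest in Gli2CA replicate 2 at 0.132 and highest in NTC replicate 1 at 0.361, and its group means differed by -0.44 (log2; exact p = 0.5). The Actb to Actg1 ratio differed by -0.15 (log2; exact p = 0.5), the Arpc1b to Arpc2 ratio by 0.20 (exact p = 0.5) and the Tagln to Tagln2 ratio by 0.38 (exact p = 0.9). None of these 5 comparisons passed 0.05, which the design could not have reached.

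**Figure D4:**
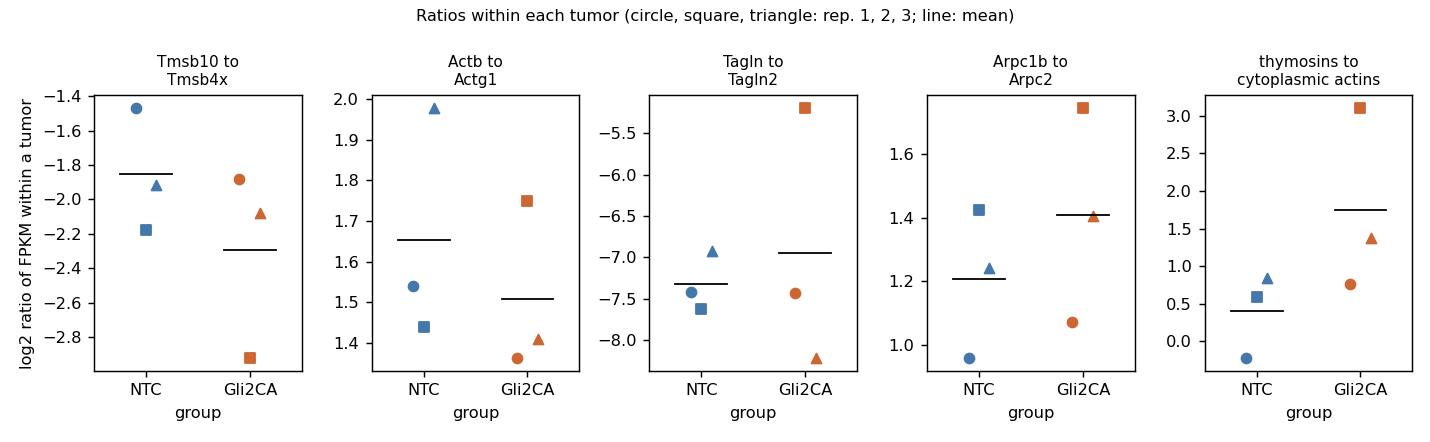
Log2 ratio of FPKM between pairs of members within each tumor, for NTC and Gli2CA, with marker shapes for replicates 1 to 3, a line at the group mean and an axis of its own in each panel. Gli2CA replicate 2 (square) is the highest tumor for thymosins to actins (3.11), Tagln to Tagln2 (-5.19) and Arpc1b to Arpc2 (1.74), and the lowest for Tmsb10 to Tmsb4x (-2.92).

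The pattern of Tmsb4x over the 6 tumors was shared by many genes. Among 8138 genes with a mean of at least 10 FPKM, 968 had a Pearson r over 0.9 with it, led by Mettl23 (r = 0.9998), Rpl35a, a ribosomal protein (0.9996), and Snhg15, a host gene of small nucleolar RNA (0.9995). Those 3 have mean transcript lengths of 786.5, 829.4 and 570.2 bases, beside a median of 1599 over the tested genes. For Actb, 125 genes were over 0.9, led by Ak1 (0.999), Mfsd1 (0.9899) and Lrrfip2 (0.9773). For Tagln, 22 of 8139 genes were, led by Hyi (0.9943), Neat1 (0.9846) and Mir142hg (0.965). These values describe the libraries, which differ in depth and in their trend on length, and Gli2CA replicate 2 is an extreme point for all 3 members.

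Of 162 genes in 11 lists of actin regulators, the members included, 154 were tested and none passed the threshold in limma. At an unadjusted p under 0.05, 5 were higher in Gli2CA and 37 lower, that is 3.25% and 24.0%, beside 12.8% and 14.7% of all tested genes; limma-voom on recovered fragments called 1 gene, lower. The median log2 fold change of the 154 was -0.26, beside -0.039 over all tested genes. With the length trend removed it was -0.17, with 9 higher and 33 lower at that level (13.6% and 12.9% of all tested genes). When Gli2CA replicate 2 was left out it was -0.049, with 13 higher and 27 lower (13.2% and 12.5% of all tested genes). The lists differ in median transcript length, from 972 bases for the actin isoforms to 2953 bases for the formins.

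Among monomer binders the 2 thymosins were the genes with an unadjusted p under 0.05 on the higher side of 10 tested. On the lower side stood Mtss1, a membrane-bending protein that binds monomers, with a log2 fold change of -0.96 ± 0.34 (SE, limma adjusted p = 0.120). Tmsb15b1, another beta-thymosin, had 0.85 (adjusted p = 0.193) and Pfn2, the second profilin, 0.38 (adjusted p = 0.310). The estimate of Tmsb15b1, with a mean transcript length of 439 bases, rests on 8, 10 and 5 fragments in NTC and 10, 27 and 13 in Gli2CA. The muscle actins among the isoforms were uneven: Acta1, of skeletal muscle, was at 0.131, 0.413 and 521 FPKM in the NTC tumors and 290, 1.85 and 71.3 FPKM in Gli2CA. It moved with the summed skeletal muscle markers, of which it is one, at 3.87, 2.997 and 1501 FPKM in the NTC tumors and 1016, 18.9 and 346 FPKM in Gli2CA. Actc1 had a log2 fold change of 0.43 and Actg2 one of -0.27, and neither passed.

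The Arp2/3 list leaned upward, with 11 of 13 estimates above 0 and a median of 0.38. With the length trend removed the median was 0.26 and 9 of 13 were above 0, with quantile normalization 0.30 and 9 of 13, and without Gli2CA replicate 2 0.32 and 13 of 13. None passed the threshold and 1 had an unadjusted p under 0.05. That gene, Arpc5l, an alternative small subunit, was at 25.3, 44.4 and 40.8 FPKM in the NTC tumors and 46.0, 91.7 and 55.5 FPKM in Gli2CA, with a log2 fold change of 0.78 ± 0.32 (SE, limma adjusted p = 0.16). Its alternative Arpc5 was at 211, 300 and 333 FPKM in the NTC tumors and 340, 412 and 469 FPKM in Gli2CA, again without overlap (adjusted p = 0.211). Arpin, an inhibitor of the complex, had 0.57 (adjusted p = 0.192). The members Arpc1b and Arpc2 thus lay below the middle of their own list.

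The activators of the complex leaned the other way, with 16 of 18 estimates of the WASP and WAVE list below 0 and a median of -0.40. The 2 above 0 were Brk1 at 0.75 ± 0.31 (SE, limma adjusted p = 0.163) and Abi1 at 0.23 (adjusted p = 0.608). Brk1 was higher in every Gli2CA tumor than in any NTC tumor, while Abi1 overlapped. At an unadjusted p under 0.05 the list held 1 gene on the higher side, Brk1, and 6 on the lower. With the length trend removed the median was -0.16, with 14 of 18 below 0, and without Gli2CA replicate 2 it was -0.23. The 3 with the smallest p were Cyfip2 (-1.26 ± 0.32), a WAVE complex subunit, Hcls1 (-1.11 ± 0.31), the cortactin relative of blood cells, and Nckap1l (-0.85 ± 0.26, all log2 ± SE), the WAVE complex subunit of blood cells, at limma adjusted p of 0.078, 0.087 and 0.098. Each was lower in all 3 Gli2CA tumors than in any NTC tumor, as were 17.9% of all tested genes. The 3 were picked by their p in the same fit, so this separation adds no support of its own. Among 8 leukocyte markers, 2 were lower in the same way without overlap: Laptm5 at -1.38 and Itgb2 at -1.24 (limma adjusted p = 0.075 and 0.083), both named after their values were seen. The other 6 overlapped between groups, among them Ptprc, which marks all leukocytes, at 70.4, 71.5 and 101 FPKM in NTC against 78.5, 88.7 and 88.2 FPKM in Gli2CA. The summed level of the 8 was 2058, 1733 and 2790 FPKM in NTC against 1882, 2156 and 1593 FPKM in Gli2CA, and their median log2 fold change was -0.024 (-0.36 with the length trend removed). The part of leukocyte content in the values of the activators was not tested.

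The lists around cofilin, capping and filament assembly also had medians below 0. In the list of cofilin, its regulators and severing proteins 17 of 22 estimates were below 0, with a median of -0.35 (-0.20 without Gli2CA replicate 2). Svil, a villin relative, had -1.23, Coro7 had -1.09 and Coro2b, like it a coronin, had -1.53 (limma adjusted p = 0.057, 0.073 and 0.088). The close relatives of Cfl1 in the list, Cfl2 and Dstn, had estimates above 0, at 0.46 and 0.25 (limma adjusted p = 0.280 and 0.509). Capping proteins and tropomodulins had a median of -0.26 that was 0.038 with the length trend removed and -0.046 without Gli2CA replicate 2, and their smallest p were those of Carmil1 (-1.20), Tmod2 (-0.87) and Add2 (-1.48). Among formins and Ena/VASP proteins, 14 of 18 were below 0 with a median of -0.39 (-0.14 with the length trend removed), led by Daam2 at -1.68 ± 0.31 (SE, limma adjusted p = 0.054, the smallest of all 154), Evl at -0.70 and Fmn1 at -0.78. Of the cross-linkers and membrane linkers 18 of 19 were below 0, with a median of -0.49. With the length trend removed 14 of 19 were below 0 with a median of -0.46, and without Gli2CA replicate 2 14 of 19 with -0.30. They were led by Tln1 (-1.15), Pls1 (-1.06) and Palld (-0.95).

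**Figure D5:**
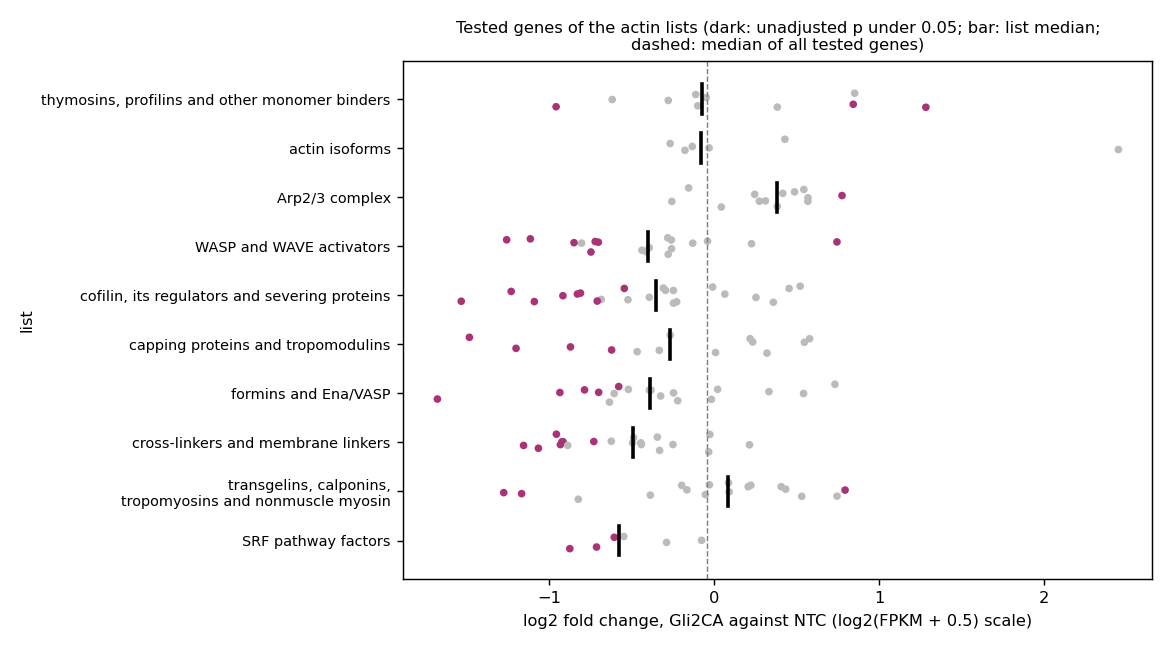
Limma log2 fold changes (Gli2CA against NTC) of every tested gene in each of 10 actin lists, as points, with a bar at each list's median; dark points have an unadjusted p under 0.05 and a dashed line stands at the median of all tested genes (-0.039). The Arp2/3 list lies mostly above 0 (median 0.38), while the lists of cross-linkers (-0.49) and SRF pathway factors (-0.58) lie mostly below.

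In the list that holds the transgelins, 9 of 17 estimates were above 0 and 8 below, with a median of 0.088 that was -0.12 with the length trend removed, -0.024 with quantile normalization and 0.19 without Gli2CA replicate 2. Myl6, the essential light chain of nonmuscle myosin, was at 469, 658 and 739 FPKM in the NTC tumors and 939, 1063 and 1194 FPKM in Gli2CA, with a log2 fold change of 0.79 ± 0.27 (SE, limma adjusted p = 0.116). Other partners of contraction went both ways. Below 0 were Mylk, the kinase of the regulatory light chain, at -1.17 ± 0.23 (limma adjusted p = 0.062), and Myh10, a nonmuscle heavy chain, at -1.27 ± 0.29 (adjusted p = 0.068). Above 0 were Myl12a, a regulatory light chain, at 0.44 ± 0.22 without overlap (limma adjusted p = 0.233), and Tpm4, a tropomyosin, at 0.75 ± 0.33 (adjusted p = 0.183). The summed markers of smooth muscle and pericytes were 296, 343 and 231 FPKM in the NTC tumors and 211, 160 and 145 FPKM in Gli2CA. Cspg4, Rgs5 and Smtn carried most of that sum. Cspg4 and Notch3 were lower in Gli2CA without overlap, at -1.19 and -1.11 (limma adjusted p = 0.088 and 0.125). Rgs5 (-0.34) and Smtn (-0.90) overlapped, as did Des, Lmod1 and Actg2. Des stood at 67.4 FPKM in NTC replicate 3 and 48.6 FPKM in Gli2CA replicate 1, where the summed skeletal muscle markers were also highest. It was at 4.66 to 11.4 FPKM in the other tumors. Myh11, at or below 3.86 FPKM in every tumor, also overlapped, at -1.26 (limma adjusted p = 0.117). Which cells these marker transcripts came from was not tested, nor was their part in the values of the contraction genes. Fibroblast markers summed to 32304, 10154 and 13145 FPKM in the NTC tumors and 7686, 8870 and 5598 FPKM in Gli2CA, with Col1a1 at -1.90 (limma adjusted p = 0.094). Endothelial markers summed to 247, 168 and 168 FPKM in NTC against 122, 123 and 106 FPKM in Gli2CA, with 8 of 8 estimates below 0 and a median of -0.74. Keratinocyte markers went the other way, at 25.8, 20.3 and 10.3 FPKM in NTC against 128, 49.0 and 76.5 FPKM in Gli2CA, with 3 of 7 tested and all 3 estimates above 0. No gene of these lists passed the threshold, and the part of these cell types in the values of the members and of the actin lists was not tested.

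In the SRF pathway all 6 tested genes had estimates below 0, with a median of -0.58. With the length trend removed 5 of 6 were below 0 with a median of -0.46, and without Gli2CA replicate 2 all 6 with -0.39. Elk4, a partner of SRF, was at -0.60, and Mrtfa and Mrtfb, the coactivators released when actin monomers are used up, were at -0.87 and -0.71 (limma adjusted p = 0.118, 0.122 and 0.179).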

How the data were processed

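RNA of 6 whole tumors was sequenced after poly-T bead selection and random hexamer priming, per the labels' protocols. The authors deposited FPKM values for 54532 genes. Aligner, counter, genome build, annotation, strand setting: not given in the sources used here. Columns were matched to samples by name. Ensembl identifiers were joined to GENCODE M21 (GRCm38), which named 54495 of them. Multiplied by mean transcript length, the low values were whole fragments within 0.1 for at least 97.07% of values per sample, which gave the depth; intervals cover the spread between samples.

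The test was limma 3.58.1 in R 4.3.3 (lmFit, eBayes with trend) on log2(FPKM + 0.5) for the 15820 genes that averaged 0.5 FPKM or more, two-sided, with Benjamini-Hochberg adjustment over all of them and a threshold of 0.05. Fold changes on this scale understate the change of low genes. Ratios within a tumor were compared by exact permutation. Similar transcripts were found with blastn 2.17.0, and tables and plots were made with pandas 2.3.3, numpy 2.4.6 and matplotlib 3.10.9 under Python 3.11.15. The fit was tested on simulated data.

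The members and the gene lists were chosen with earlier results of these data known. Beside the members, the text names up to 3 genes per actin list with the smallest p, the 3 genes most like Tmsb4x, Actb and Tagln, Srf, 5 marker genes, and genes that overlap or resemble members. Gli2, Acta2, Sox10, S100b, Laptm5, Itgb2, Cnn1, Cspg4, Notch3, Rgs5, Smtn, Des, Lmod1, Cfl2, Dstn, Brk1, Abi1, Myl12a and Tpm4 were added outside this rule. The values of 1 of the 11 actin lists are not reported here on their own. The 21 alternatives were other pseudocounts, filters, scalings, weights, variance models, a replicate block, removal of a length or GC trend, limma-voom on recovered fragments, and each sample left out.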

Additional observations from a re-analysis of the deposited data

How the results depend on the processing

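No member passed the threshold under any of the 21 alternatives. Tmsb4x kept a log2 fold change above 0 throughout, between 0.83 and 1.57, as did Tmsb10, between 0.21 (quantile normalization) and 1.09. The number of tested genes called was 55 and depended strongly on the setting: 145 with the filter at FPKM 1, 3 with no filter, 36 with quantile normalization, 736 with protein-coding genes alone rescaled, 1588 with sample weights, 101 with robust eBayes and 100 with limma-voom. Leaving out 1 tumor gave 4 to 97 calls, the fewest without NTC replicate 2 and the most without Gli2CA replicate 2 (7 and 18 without NTC replicates 1 and 3, 9 and 6 without Gli2CA replicates 1 and 3). Of the actin list genes, 1 was called with the filter at FPKM 1, 1 with limma-voom, 10 with protein-coding genes rescaled and 14 with sample weights. With replicate number as a block 1928 genes and 18 actin list genes were called, and the adjusted p of Tmsb4x and Tmsb10 were 0.0705 and 0.0988; deviations of same-numbered tumors correlated at 0.35, 0.22 and 0.024, and the labels give no shared origin, so the block is not used. Rescaling to protein-coding genes and to all genes other than the members moved the median of all genes to -0.29 and -0.17.

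Direction changed in some settings for every member other than Tmsb4x, Tmsb10 and Tagln, none of them past the threshold in any setting, and the cause was not tested. Arpc1b was -0.15 with the length trend removed, -0.16 with protein-coding genes rescaled, -0.44 with quantile normalization and -0.10 when rescaled to other genes; Tagln2 was -0.12, -0.11, -0.10 and -0.060 in the same settings. Actg1 and Pfn1 were 0.18 and 0.20 with the GC trend removed and 0.20 and 0.061 with sample weights, where Arpc2 was 0.018. Leaving out 1 tumor gave Tmsb4x 0.83 to 1.57, Tmsb10 0.71 to 1.05, Actb -0.39 to 0.073, Actg1 -0.32 to 0.34, Pfn1 -0.16 to 0.13, Cfl1 -0.46 to 0.057, Arpc1b -0.048 to 0.14, Arpc2 -0.32 to 0.10, Tagln 0.021 to 0.75 and Tagln2 -0.14 to 0.52. The log2 ratio differences ran from -0.65 to -0.13 for Tmsb10 to Tmsb4x, -0.27 to 0.017 for Actb to Actg1 (above 0 without NTC replicate 3), -0.50 to 1.01 for Tagln to Tagln2 (below 0 without Gli2CA replicate 2), 0.030 to 0.37 for Arpc1b to Arpc2, and 0.66 to 1.84 for thymosins to actins. With 3 tumors a group, a change within a printed interval could have been missed, and Tagln rests on few fragments.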
